A study of Mus musculus with 6 samples.

Results

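The genes described here are those of the proteasome and the immunoproteasome, taken as every symbol of the table that begins with Psma to Psmg followed by a number and that averaged at least 1 FPKM over the 6 libraries (FPKM, the fragments per kilobase of a gene, scaled by library depth). The rule found 53 symbols, of which 49 passed the minimum, out of 9691 genes that passed it in all. By role the members are 7 subunits of the alpha ring, 3 constitutive catalytic subunits, 3 immune catalytic subunits, 4 other subunits of the beta ring, 6 ATPases and 11 other subunits of the regulatory particle, 7 assembly chaperones, and 6 activators or inhibitors. The other 2 members, Psmc3ip and Psme3ip1, met the rule by their symbol only: Psmc3ip encodes a factor of homologous recombination, and Psme3ip1 a protein that binds the activator PSME3. The 4 symbols below the minimum averaged 0.110 FPKM for Psma8, a testis subunit, 0.121 FPKM for the pseudogene Psma5-ps, 0.0215 FPKM for the pseudogene Psmb7-ps2 and 0.00259 FPKM for Psmb11, the thymus-specific catalytic subunit. The lowest member, the assembly chaperone Psmg3, averaged 4.63 FPKM.

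The libraries are bulk RNA-seq of mouse CD8+ T cells from lymph nodes of Dusp2-/- mice (Dusp2KO), which lack a phosphatase of MAP kinases, and of wild-type (WT) mice. Cells of all groups spent 18 h on anti-CD3 bound to the plate (1 µg/mL), in medium with 20 ng/mL of IL-4, 50 ng/mL of IFN-α and 1 µg/mL of anti-CD28, a mixture that the labels describe as inducing virtual memory T cells in culture. Sorting on the surface protein CD44 then gave the fraction with the highest CD44 (CD44hi) and the fraction with low CD44 (CD44lo). There were 2 Dusp2KO and 2 WT libraries of CD44hi cells, and 1 Dusp2KO and 1 WT library of CD44lo cells. The ages of the mice and the kind of Dusp2 allele were not given in the sources used here, and the treatment text of the labels names Cd4-Cre Rpa1fl/fl mice where the titles and the design name the Dusp2 knockout.

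The proteasome is the main protease of the cytosol and the nucleus and degrades proteins tagged with ubiquitin. Its core particle stacks alpha rings on either side of beta rings, and the active sites sit on the beta subunits PSMB5, PSMB6 and PSMB7, which cut after hydrophobic, acidic and basic residues. In lymphocytes, and in most cells under interferon, newly built cores take up the immune subunits PSMB8, PSMB9 and PSMB10 in place of PSMB5, PSMB6 and PSMB7, and the activator PA28, made of PSME1 and PSME2, can cap the core. This changes which peptides are cut and supplied to MHC class I molecules. The regulatory particle (the PSMC ATPases and most PSMD proteins) binds, unfolds and feeds in ubiquitinated proteins, and chaperones of the PSMG and PSMD families help to assemble the complex.

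Whole reads recovered from the FPKM steps, which can fall short of the real number, came to between 23490008 (Dusp2KO CD44lo) and 55830235 per library. Dusp2 was listed at 0 and 0.0283 FPKM in Dusp2KO CD44hi cells, against 82.6 and 83.9 FPKM in WT CD44hi cells, and at 0 FPKM in Dusp2KO CD44lo cells, against 116 FPKM in the WT CD44lo library. Of 5 CD8 T cell markers 4 were in the table, with a summed level of 808 to 1197 FPKM per library, whereas Cd4 was at most 0.0228 FPKM, Cd79a of B cells at most 0.379 FPKM, and the 5 measured of 7 myeloid and dendritic markers summed to at most 0.212 FPKM. Since no label says that the libraries are of separate animals or cultures, a p-value here measures the spread between these samples and nothing more. Each adjusted p is two-sided and comes from limma, adjusted by Benjamini-Hochberg over the 9691 genes tested, and a call means an adjusted p under 0.05. Differences are on the log2(FPKM + 1) scale, on which low genes appear to change less than they did.

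Promoter windows are shown for 4 of the members that the results turn on: Psmb5, the subunit with the largest genotype difference, its immune counterpart Psmb8, and Psmb9 and Psme1, which were lower in CD44hi cells. Each runs from 250 bases before to 50 bases after the annotated start, from RefSeq on GRCm38.p6, a build other than the mm39 named in the submitters' processing notes. The windows lie at chr14:54617946-54618245 on the minus strand, chr17:34197945-34198244 on the plus strand, chr17:34187281-34187580 on the minus strand and chr14:55578244-55578543 on the plus strand. Capitals mark matches, on either strand, to GAAA, any 2 bases and GAAA (core of the interferon-stimulated response element), TTCNNNGAA (the gamma-activated site) or TGACNNNGC (core of the antioxidant response element, bound by NRF family factors).
Psmb5: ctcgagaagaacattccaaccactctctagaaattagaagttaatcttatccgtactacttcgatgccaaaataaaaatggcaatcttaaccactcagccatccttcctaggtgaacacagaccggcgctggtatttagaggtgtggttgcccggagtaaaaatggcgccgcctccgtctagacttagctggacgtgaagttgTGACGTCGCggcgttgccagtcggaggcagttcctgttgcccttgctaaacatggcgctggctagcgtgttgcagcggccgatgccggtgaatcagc
Psmb8: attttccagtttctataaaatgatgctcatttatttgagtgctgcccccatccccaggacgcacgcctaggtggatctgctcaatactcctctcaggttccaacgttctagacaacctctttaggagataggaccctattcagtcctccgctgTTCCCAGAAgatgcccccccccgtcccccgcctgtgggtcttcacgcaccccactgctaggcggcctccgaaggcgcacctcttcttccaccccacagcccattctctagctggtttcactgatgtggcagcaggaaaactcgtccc
Psmb9: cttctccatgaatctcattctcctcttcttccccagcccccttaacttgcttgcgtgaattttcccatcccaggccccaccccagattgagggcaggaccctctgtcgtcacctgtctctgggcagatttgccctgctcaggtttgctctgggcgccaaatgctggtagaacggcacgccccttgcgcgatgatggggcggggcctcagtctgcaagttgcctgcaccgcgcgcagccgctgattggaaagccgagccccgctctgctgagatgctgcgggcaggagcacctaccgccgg
Psme1: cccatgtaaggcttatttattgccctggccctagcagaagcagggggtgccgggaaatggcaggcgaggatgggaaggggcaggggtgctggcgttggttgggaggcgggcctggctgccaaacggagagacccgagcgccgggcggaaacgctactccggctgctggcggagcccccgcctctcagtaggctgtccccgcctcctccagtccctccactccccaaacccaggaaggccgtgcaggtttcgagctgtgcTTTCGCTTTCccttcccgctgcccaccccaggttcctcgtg
The Psmb5 window held 1 antioxidant response core 47 bases before the start, the Psmb8 window 1 gamma-activated site 97 bases before it, and the Psme1 window 1 interferon-stimulated core on the minus strand beginning at position 10 of the transcript. No match lay in the Psmb9 window, nor in that of Psmb10, which was also lower in CD44hi cells and whose window is not shown. This says only that these letters are not in the 300 bases of each window. Of the 42 members with a window, 5 held the interferon-stimulated core, 3 held TTCNNNGAA and 6 held TGACNNNGC, where 3.44%, 8.30% and 12.4% of all 32851 windows did. The GC box letters GGGCGG, not marked above, were in 24 of the 42 and in 35.7% of all windows. A member counts if any of its windows matched, whereas the background is a share of single windows, so the 2 are unlike measures. These matches describe letters and are no evidence of binding.

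The members were abundant and, for the most part, even across the libraries. The 28 core and regulatory subunits that are not catalytic summed in CD44hi cells to 2482 and 2503 FPKM in the Dusp2KO and 2599 and 2807 FPKM in the WT libraries, and in CD44lo cells to 2739 FPKM in the Dusp2KO and 2583 FPKM in the WT library. The ratio of the highest to the lowest library had a median of 1.26 over the 49 members, against 1.48 over all genes tested. Psme2 (246 FPKM on average), Psme1 (241 FPKM), the alpha subunits Psma6 (205 FPKM) and Psma5 (203 FPKM), and Psme3 (187 FPKM) had the highest levels per length. The widest ratios were those of Psme2b (5.63), Psmb5 (2.84), Psmb10 (2.70) and Psmc3ip (2.22).

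**Figure D1:**
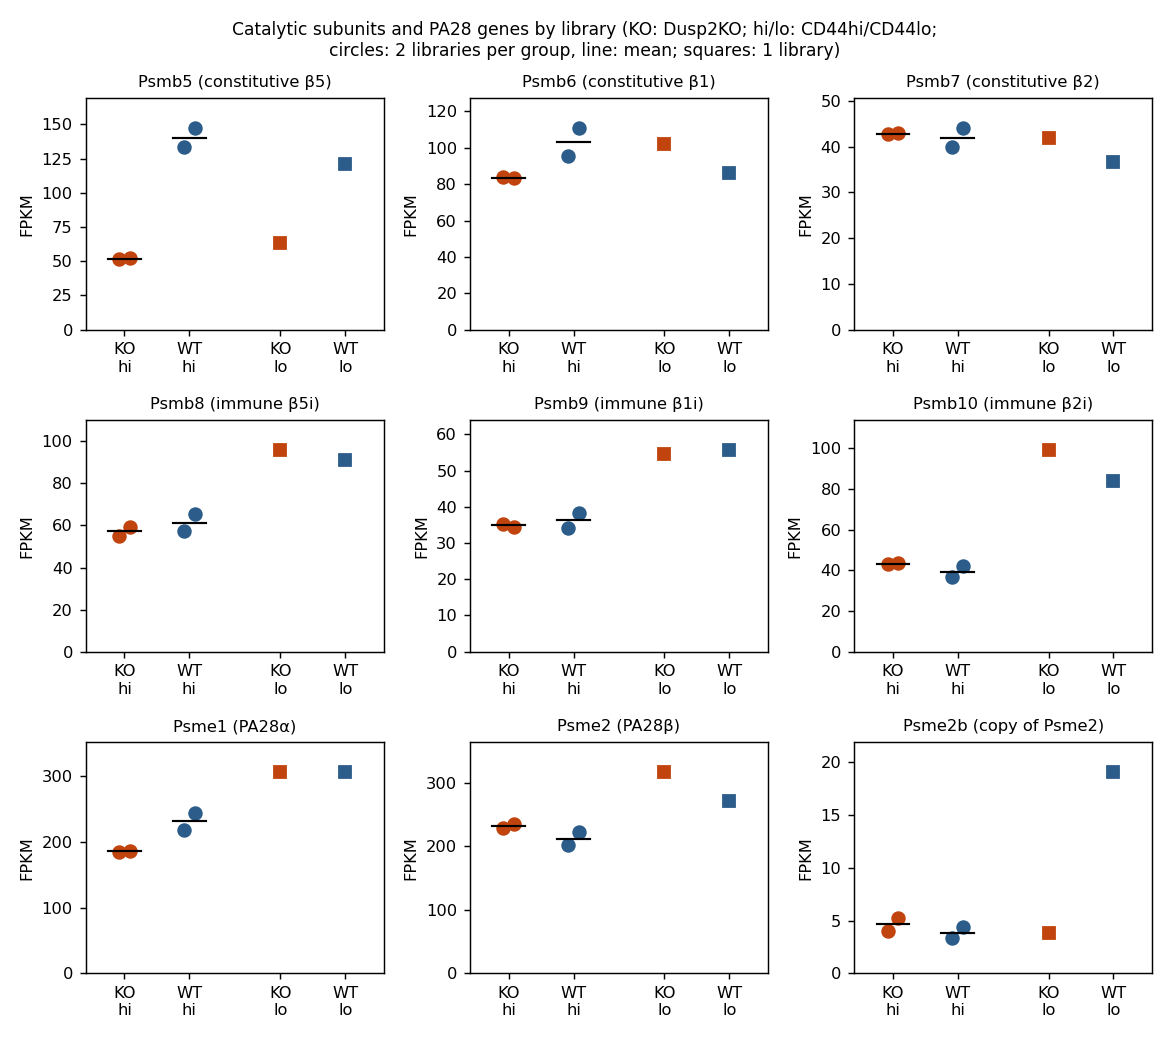
FPKM of the 3 constitutive and 3 immune catalytic subunits and of the PA28 genes in each library, with Dusp2KO left of WT within each CD44 fraction; circles are the 2 CD44hi libraries of a genotype with a line at their mean, and squares are single CD44lo libraries. Psmb5 lay at 51.8 to 63.5 FPKM in Dusp2KO and at 121 to 147 FPKM in WT libraries, while Psmb8, Psmb9, Psmb10, Psme1 and Psme2 were lower in every CD44hi than in either CD44lo library.

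The genotype comparison in CD44hi cells asks which subunits differ with the loss of Dusp2. The largest difference among the 49 members was that of Psmb5. It was measured at 51.8 and 52.0 FPKM in Dusp2KO CD44hi cells, against 134 and 147 FPKM in WT CD44hi cells. Both Dusp2KO libraries lay far below both WT libraries, and the difference was -1.42 (SE 0.071, adjusted p = 0.0003). With no filter on low values it kept its size but missed the threshold (adjusted p = 0.062), as did every other member called here. In all, 8 members were called in this comparison, 1 higher and 7 lower in Dusp2KO, which is 16.3% of the members against a background of 26.7% of all genes tested (12.9% higher and 13.8% lower). In CD44lo cells Psmb5 was at 63.5 FPKM in the Dusp2KO library and at 121 FPKM in the WT library, a difference of -0.92 with no replicate. In bulk samples, fewer cells of a kind and less RNA per cell cannot be told apart.

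The other constitutive catalytic subunits had smaller differences. Psmb6 was at 83.7 and 83.2 FPKM in Dusp2KO CD44hi cells, against 95.5 and 111 FPKM in WT CD44hi cells. The groups did not overlap and Psmb6 fell by 0.30 (SE 0.084, adjusted p = 0.042), but the single CD44lo pair ran the other way, with 102 FPKM in Dusp2KO and 86.2 FPKM in WT cells. Psmb7 was at 42.7 and 42.9 FPKM in Dusp2KO CD44hi cells, against 39.8 and 44.0 FPKM in WT CD44hi cells, so the groups overlapped (difference 0.03, adjusted p = 0.75).

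None of the 3 immune catalytic subunits was called between the genotypes. Psmb8 was at 55.2 and 59.4 FPKM in Dusp2KO CD44hi cells, against 57.5 and 65.2 FPKM in WT CD44hi cells (difference -0.09, SE 0.082, adjusted p = 0.42). Psmb9 was at 35.3 and 34.5 FPKM in Dusp2KO CD44hi cells, against 34.1 and 38.3 FPKM in WT CD44hi cells (difference -0.05, SE 0.074, adjusted p = 0.65). For both genes the groups overlapped. Psmb10 was at 42.8 and 43.6 FPKM in Dusp2KO CD44hi cells, against 36.6 and 41.9 FPKM in WT CD44hi cells, which did not overlap but missed the threshold (difference 0.14, SE 0.079, adjusted p = 0.23).

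Because FPKM are per length, each immune subunit can be set against the constitutive one it replaces. The ratio of Psmb8 to Psmb5 was 1.07 and 1.14 in Dusp2KO CD44hi libraries, against 0.430 and 0.444 in WT CD44hi libraries. The immune transcript thus read slightly above its partner in the knockout and below it in the wild type, a difference of 1.34 in the log2 ratio. The same ratio was 1.51 in Dusp2KO CD44lo and 0.749 in WT CD44lo cells. The log2 ratio differed between the genotypes by 0.25 for Psmb9 to Psmb6 and by 0.11 for Psmb10 to Psmb7 in CD44hi cells, without overlap between the groups. In the CD44lo pair they differed by -0.28 for Psmb9 to Psmb6, the opposite sign, and by 0.047 for Psmb10 to Psmb7. An exact permutation test of 2 against 2 libraries gave p = 0.333 for each of the 3 ratios, two-sided, which is the smallest p the design allows.

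The 3 immune subunits together made up 42.8% and 43.6% of the catalytic FPKM in Dusp2KO CD44hi, 32.3% and 32.5% in WT CD44hi, 54.6% in Dusp2KO CD44lo and 48.6% in WT CD44lo cells. Their summed level did not separate the genotypes in CD44hi cells, at 133 and 137 FPKM in Dusp2KO, against 128 and 145 FPKM in WT libraries. The constitutive sum did, at 178 and 178 FPKM in Dusp2KO CD44hi, against 269 and 302 FPKM in WT CD44hi libraries. That sum holds Psmb5, at 51.8 and 52.0 FPKM in Dusp2KO CD44hi, against 134 and 147 FPKM in WT CD44hi libraries. The share is therefore no shift of all 3 sites alike. For Psmb9 to Psmb6 and Psmb10 to Psmb7 the log2 ratios differed by only 0.25 and 0.11 in CD44hi cells. In the CD44lo pair they differed by -0.28 and 0.047. The level of a ratio depends on the gene lengths behind the deposited FPKM. As recovered with the reads, these lay within 2% of the union of a gene's exons for 47 of 48 members. Psmg1 came out at 0.507 of its union, but reads are recovered only up to a common factor, so its deposited length may be longer. With the length of the principal transcript in place of the recovered one, Psmb8 to Psmb5 in CD44hi cells came to 2.22 and 2.37 in Dusp2KO. It came to 0.894 and 0.921 in WT CD44hi libraries. In CD44lo cells that ratio came to 3.14 in Dusp2KO and to 1.56 in WT, where the WT ratio by deposited FPKM was 0.749. The immune share in CD44hi cells came to 41.6% and 42.3% in Dusp2KO, against 35.3% and 35.4% in WT libraries. Reads over shared exon bases are a further limit: Psmb5 shares 109 with the microRNA gene Mir686 on its strand, and Psmb8 498 with Gm20496 and Psmb7 405 with Nek6 on the opposite strand.

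**Figure D2:**
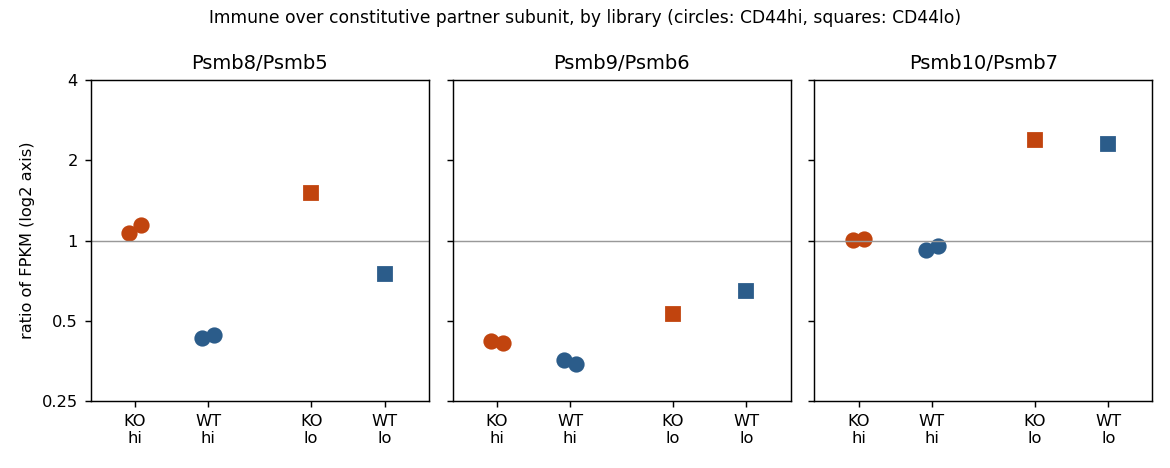
Ratio of the FPKM of each immune catalytic subunit to that of the constitutive subunit it replaces, on a log2 axis, with Dusp2KO left of WT within each CD44 fraction (circles CD44hi, squares CD44lo, 1 point per library). Psmb8/Psmb5 lay at 1.07 to 1.51 in Dusp2KO and at 0.430 to 0.749 in WT libraries, whereas Psmb10/Psmb7 separated the fractions, at 0.919 to 1.02 in CD44hi and at 2.29 to 2.37 in CD44lo libraries.

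Over all 49 members, the Dusp2KO and WT libraries of CD44hi cells did not overlap for 36, or 73.5%, where 68.2% of all genes tested did not overlap. The shares called and not overlapping are thus no result about the members as a set, and the number called moved with single libraries, as it did over all genes. Psmb5 alone (2.04%) was called without Dusp2KO CD44hi replicate 1 or replicate 2, against 12.2% and 11.2% of all genes, and 22 members (44.9%), of which 21 were lower, without WT CD44hi replicate 1, against 42.2% of all genes.

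Beside Psmb5 and Psmb6, the lower members were the subunits Psmb3, Psmd4 and Psmd8, the activator Psme1 and Psme3ip1. Psmb3, a beta subunit with no active site, was at 88.0 and 90.7 FPKM in Dusp2KO CD44hi cells, against 102 and 120 FPKM in WT ones (difference -0.30, SE 0.088, adjusted p = 0.046). Psmd4, a ubiquitin receptor of the regulatory particle, was at 66.4 and 63.6 FPKM in Dusp2KO CD44hi cells, against 77.7 and 83.0 FPKM in WT ones (difference -0.30, SE 0.067, adjusted p = 0.022). In both genes the Dusp2KO libraries were the lower ones, and the WT pair differed more within itself than the Dusp2KO pair. Psmd8, a subunit of the lid, and Psme3ip1 fell by 0.23 and 0.24 (adjusted p = 0.040 and 0.0499). The calls of Psmb3, Psmb6, Psme1, Psmd8 and Psme3ip1 ended when the libraries were rescaled by median ratios (adjusted p = 0.077, 0.072, 0.069, 0.076 and 0.074) and when a trend on gene length was removed (adjusted p = 0.082, 0.086, 0.067, 0.076 and 0.066). Without either Dusp2KO CD44hi library every call but that of Psmb5 ended (adjusted p between 0.088 and 0.35). Without WT CD44hi replicate 2 Psmb3 and Psmb6 each differed by -0.19, and both calls held (adjusted p = 0.040 and 0.034).

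The member that rose was Psmc3ip, the recombination factor. It was at 12.998 and 13.6 FPKM in Dusp2KO CD44hi cells, against 9.72 and 11.01 FPKM in WT ones (difference 0.33, SE 0.081, adjusted p = 0.028), with no overlap. In CD44lo cells it was at 9.40 FPKM in the Dusp2KO and at 6.10 FPKM in the WT library. Its exons share 385 bases with Mlx on the opposite strand, and the counting is not stated to use strand, so reads of the 2 genes in that stretch cannot be told apart.

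**Figure D3:**
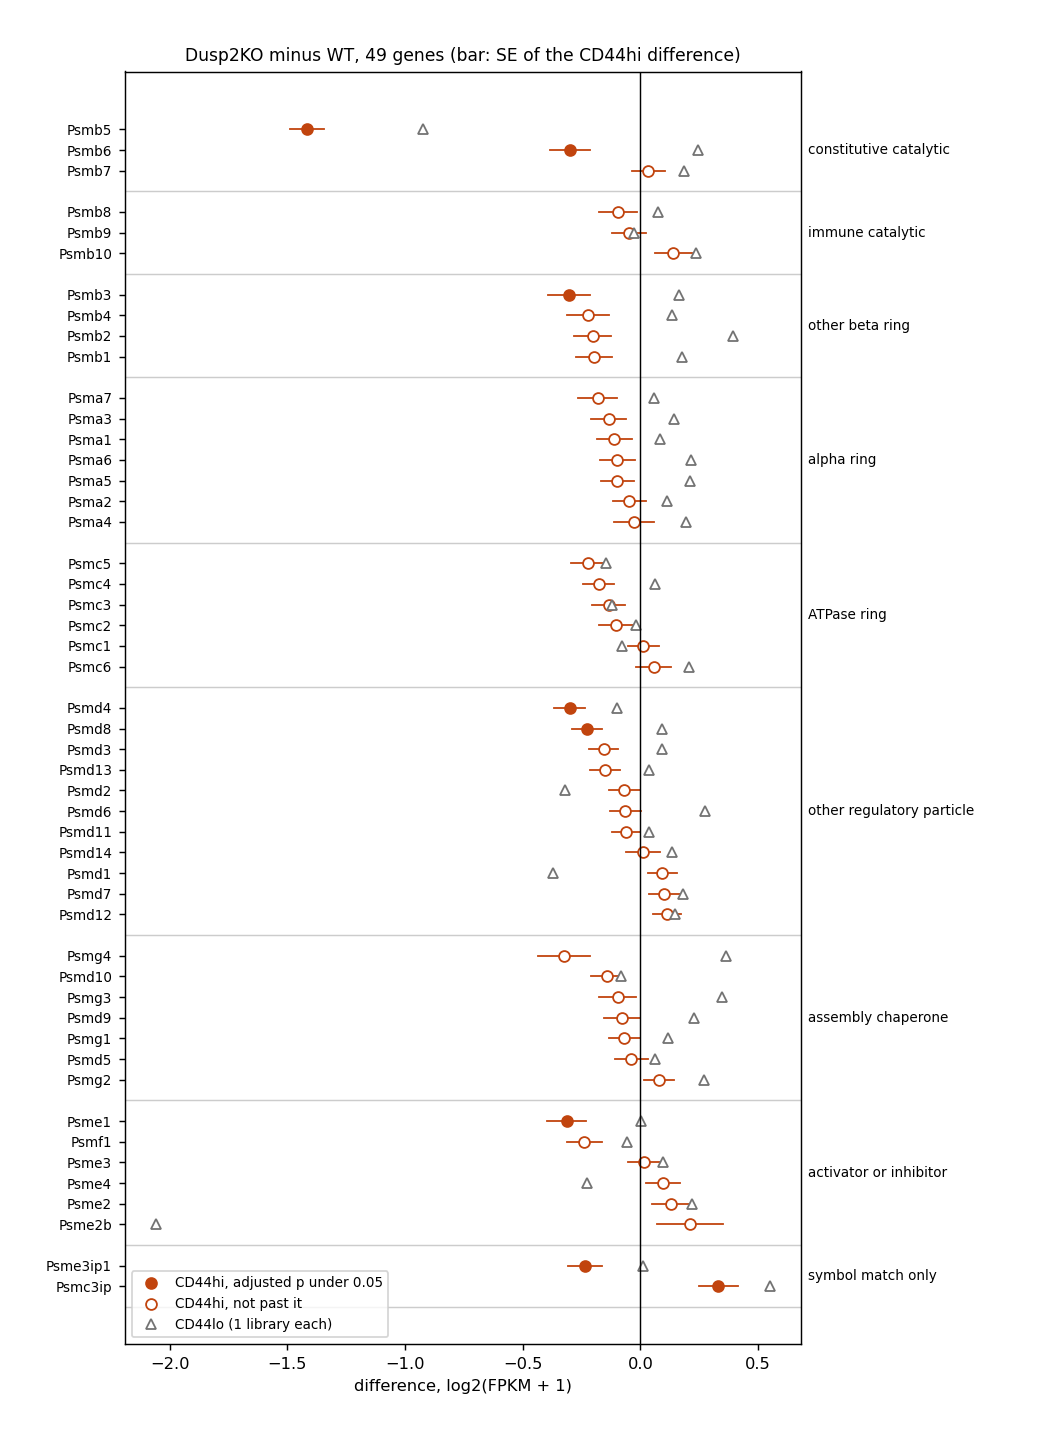
Dusp2KO minus WT on the log2(FPKM + 1) scale for the 49 members by role, with circles for CD44hi (filled where the adjusted p was under 0.05, bars 1 SE) and triangles for the single CD44lo pair. Psmb5 lay far to the left of every other member in CD44hi cells at -1.42, and Psme2b was the lowest in CD44lo cells at -2.06.

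The remaining core subunits had small differences between the genotypes, with opposite signs in the 2 fractions. All 7 alpha subunits had small negative differences in CD44hi cells (-0.18 to -0.03) and small positive ones in the CD44lo pair (0.06 to 0.21), and the 4 other beta subunits ran from -0.30 to -0.20 in CD44hi cells and from 0.13 to 0.39 in the CD44lo pair. The 6 ATPases, which unfold the substrate, ranged from -0.22 to 0.06 in CD44hi cells with 0 called by limma, 2 of them at an unadjusted p under 0.05. The 11 other subunits of the regulatory particle, 2 of them called (Psmd4 and Psmd8), ranged from -0.30 to 0.11. The 7 assembly chaperones had 0 calls by limma and 1 at an unadjusted p under 0.05, with Psmg4 lowest at -0.32. Of all 9691 genes tested, 4001 had an unadjusted p under 0.05 in the genotype comparison in CD44hi cells. The median over the 49 members was -0.10 in CD44hi cells, against -0.02 over all genes tested, and 0.09 in the CD44lo pair, against -0.01.

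Gene length moved with these differences. Across the genes tested, the genotype difference had a Spearman correlation with gene length of 0.27 in CD44hi and of -0.33 in the CD44lo pair, given as a description over genes that share their libraries. The members were short, with a median length of 2850 bases against 4318 bases. With a length trend removed from each library, the CD44hi median of the members was -0.06, against -0.02 over all genes. The mitochondrial share of reads also differed, at 2.73% and 2.94% in Dusp2KO CD44hi, 2.15% and 2.03% in WT CD44hi, 3.79% in Dusp2KO CD44lo and 2.56% in WT CD44lo libraries, and its part in the results was not tested. For Psmb5, the difference in CD44hi cells was -1.29 with the length trend removed.

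Psmb5 lies on chromosome 14, as do Psme1, Psme2, Psmc6 and Psmd6. On that chromosome 140 of 423 tested genes were called between the genotypes in CD44hi cells, which is 33.1% against 26.7% of all genes tested. In the order of tested genes along the chromosome, the 30 on either side of Psmb5 and Psmb5 itself made 61 genes, 21 of them gene segments of the T cell receptor. Of the 61, 18 were called lower in Dusp2KO, Psmb5 and Psme1 among them, and 2 higher. Of all genes tested, 13.8% were called lower and 12.9% higher. The nearest neighbours of Psmb5 were not called: 4931414P19Rik differed by -0.12 and Acin1, the gene of a splicing factor, by -0.08. Ppp1r3e, 5 places away, differed by -1.64, and Gm43305, 7 places away on the other side, by -2.28. These 2 and the receptor segments Traj3, Traj16 and Traj26 were the 5 genes of the window that differed by more than Psmb5 in absolute value. Psme1 and Psme2 were 13 and 15 places away. The part of the neighbourhood in the Psmb5 difference was not tested.

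**Figure D4:**
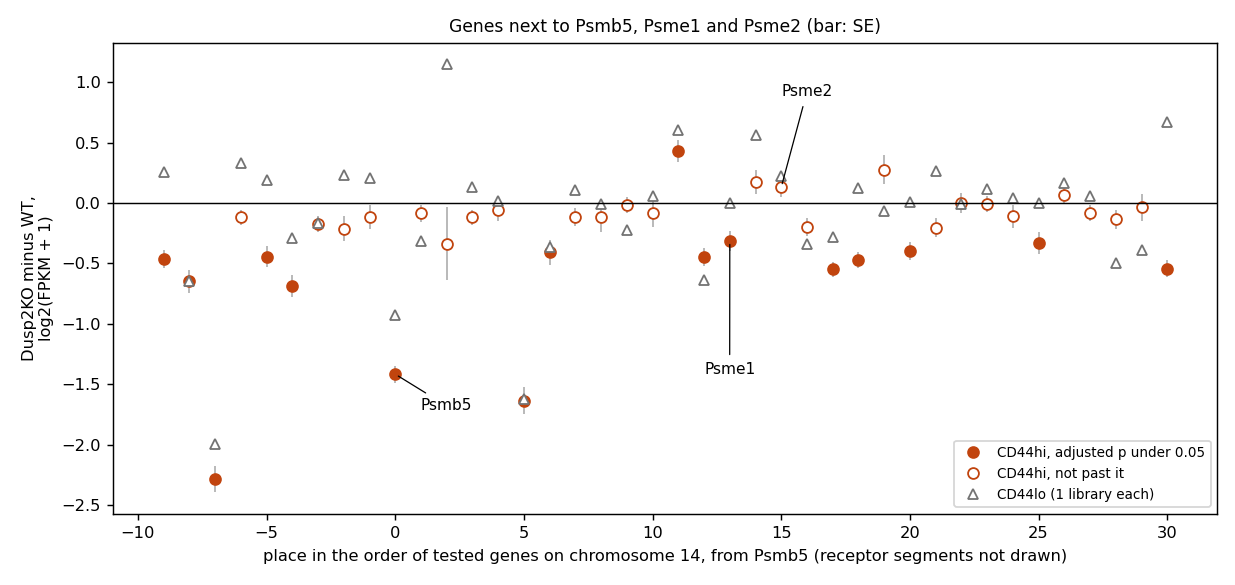
Dusp2KO minus WT on the log2(FPKM + 1) scale for the tested genes around Psmb5 in their order along chromosome 14, receptor segments left out, with circles for CD44hi (filled where the adjusted p was under 0.05, bars 1 SE) and triangles for the CD44lo pair. Psmb5 at -1.42 stood between uncalled neighbours at -0.12 and -0.08, and Psme1 (-0.31) and Psme2 (0.13) differed in sign. Gm43305 (-2.28) and Ppp1r3e (-1.64) lay below Psmb5 in CD44hi cells.

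The genes of PA28, Psme1 and Psme2, lie close together and encode subunits of 1 ring, yet their genotype differences had opposite signs and 1 of them was called. Psme1 was at 184 and 187 FPKM in Dusp2KO CD44hi cells, against 217 and 244 FPKM in WT ones, and fell by 0.31 (SE 0.083, adjusted p = 0.036). Psme2 was at 229 and 236 FPKM in Dusp2KO CD44hi cells, against 202 and 223 FPKM in WT ones, and was not called (difference 0.13, SE 0.080, adjusted p = 0.26). The groups did not overlap in either gene. Whether the 2 differences were themselves unequal was not tested. In the CD44lo pair Psme1 was level, at 306 FPKM in both libraries, and Psme2 was at 317 FPKM in Dusp2KO and at 272 FPKM in WT cells.

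The comparison of CD44hi with CD44lo cells, fitted over both genotypes, asks which subunits go with the sorted fraction. Of the members 8 were called, 2 higher and 6 lower in CD44hi, which is 16.3% against a background of 27.4% of all genes tested (16.6% higher and 10.8% lower). The immune catalytic subunits and both PA28 genes were lower in CD44hi cells in both genotypes. Psmb10 was at 42.8 and 43.6 FPKM in CD44hi cells of Dusp2KO and at 36.6 and 41.9 FPKM in those of WT mice, against 99.0 FPKM in the CD44lo library of Dusp2KO and 84.0 FPKM in that of WT mice. No CD44hi library exceeded 43.6 FPKM and neither CD44lo library was below 84.0 FPKM, and the difference was -1.13 (SE 0.082, adjusted p = 0.0001).

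Psmb8 was at 55.2 and 59.4 FPKM in CD44hi cells of Dusp2KO and at 57.5 and 65.2 FPKM in those of WT mice, against 95.8 FPKM in the CD44lo library of Dusp2KO and 90.9 FPKM in that of WT mice (difference -0.65, SE 0.088, adjusted p = 0.0019). Psmb9 was at 34.1 to 38.3 FPKM in the 4 CD44hi libraries, against 54.5 FPKM in the Dusp2KO CD44lo and 55.6 FPKM in the WT CD44lo library (difference -0.62, SE 0.077, adjusted p = 0.0014). In both genes all CD44hi libraries lay below both CD44lo libraries. Within a genotype the CD44hi minus CD44lo differences of Psmb8, Psmb9 and Psmb10 were -0.73, -0.63 and -1.18 in Dusp2KO and -0.56, -0.61 and -1.08 in WT cells.

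The PA28 genes were lower as well. Psme1 was at 184 to 244 FPKM in the 4 CD44hi libraries, against 306 FPKM in both CD44lo libraries, and fell by 0.56 (SE 0.102, adjusted p = 0.0068). Psme2 was at 202 to 236 FPKM in the 4 CD44hi libraries, against 317 FPKM in the Dusp2KO CD44lo and 272 FPKM in the WT CD44lo library, and fell by 0.40 (SE 0.084, adjusted p = 0.012). Neither gene overlapped between the fractions. The Psme2 call ended without Dusp2KO CD44hi replicate 1, Dusp2KO CD44hi replicate 2 or WT CD44hi replicate 1 (adjusted p = 0.058, 0.063 and 0.053).

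The constitutive catalytic subunits were not called. Psmb5, Psmb6 and Psmb7 differed between CD44hi and CD44lo by -0.04, -0.02 and 0.11, with adjusted p of 0.83, 0.92 and 0.33. Without the WT CD44lo library Psmb5 differed by -0.29 (adjusted p = 0.039), and without the Dusp2KO CD44lo library by 0.21 (adjusted p = 0.13). The 28 other subunits of the core and the regulatory particle had 0 calls by limma, with 0 at an unadjusted p under 0.05 as well, and ranged from -0.15 to 0.23. Of all 9691 genes tested, 2655 were called between the fractions and 3904 had an unadjusted p under 0.05. The fit averages the 2 genotypes, which here had opposite signs. In Dusp2KO 22 of the 28 were lower in CD44hi (median -0.11), as were 4322 of all genes (median 0.05). In WT 24 of the 28 were higher (median 0.07), as were 5539 of all genes (median 0.05). Psmb6 differed by -0.29 in Dusp2KO and by 0.25 in WT. Each of these values rests on 1 CD44lo library. The ratio of Psmb10 to Psmb7 was 1.00 and 1.02 in Dusp2KO CD44hi libraries, against 2.37 in the Dusp2KO CD44lo one, and 0.919 and 0.953 in WT CD44hi libraries, against 2.29 in the WT CD44lo one.

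The 5 immune and PA28 genes had a median difference of -0.62, against 0.05 over all genes tested. All 4 CD44hi libraries lay below both CD44lo libraries for 8 members, 16.3% against 15.1% of all genes. The number of members called rose to 18 (36.7%, against 40.1% of all genes), of which 14 were lower, without the WT CD44lo library, which leaves the shallowest library as the only one of its fraction.

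**Figure D5:**
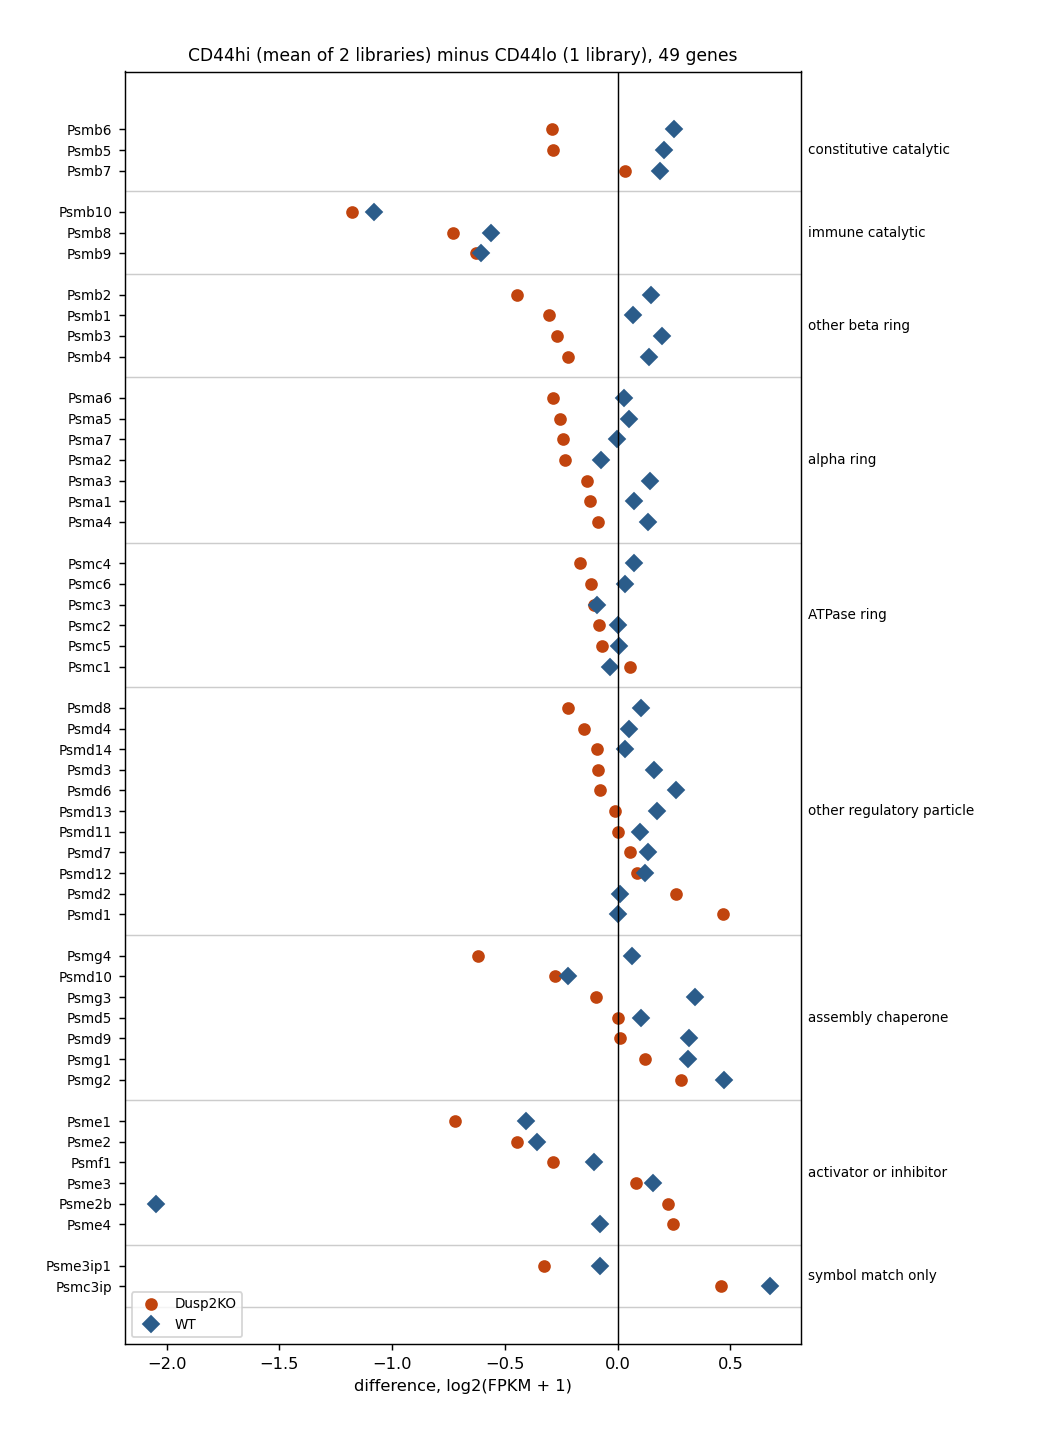
CD44hi minus CD44lo on the log2(FPKM + 1) scale for the 49 members by role, in Dusp2KO (circles) and WT (diamonds), each the mean of 2 CD44hi libraries minus 1 CD44lo library. Psmb8, Psmb9, Psmb10, Psme1 and Psme2 were to the left of 0 in both genotypes (-1.18 to -0.36), and Psme2b was at 0.22 in Dusp2KO and at -2.05 in WT.

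The other calls between the fractions were 2 assembly chaperones, Psmg2 and Psmd10, and Psmc3ip. Psmg2, an assembly chaperone of the alpha ring, was at 47.4 and 48.7 FPKM in CD44hi cells of Dusp2KO and at 46.9 and 44.1 FPKM in those of WT mice, against 39.4 FPKM in the CD44lo library of Dusp2KO and 32.5 FPKM in that of WT mice (difference 0.38, SE 0.079, adjusted p = 0.012). Psmc3ip was at 9.72 to 13.6 FPKM in the 4 CD44hi libraries, against 9.40 FPKM in the Dusp2KO CD44lo and 6.10 FPKM in the WT CD44lo library (difference 0.57, SE 0.093, adjusted p = 0.0043). Both were higher in every CD44hi library than in either CD44lo library. Psmd10, also known as gankyrin, fell by 0.25 (adjusted p = 0.043), with 20.1 to 23.5 FPKM in CD44hi, against 24.8 FPKM in the Dusp2KO CD44lo and 26.4 FPKM in the WT CD44lo library. The Psmd10 call ended without Dusp2KO CD44hi replicate 1 or 2, WT CD44hi replicate 1 or the Dusp2KO CD44lo library (adjusted p between 0.096 and 0.16).

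The remaining activators and the inhibitor were not called in either comparison. Psme3, the nuclear activator PA28γ, was at 187 to 197 FPKM in the 4 CD44hi libraries, against 183 FPKM in the Dusp2KO CD44lo and 172 FPKM in the WT CD44lo library (difference 0.12, adjusted p = 0.29). Psme4, the activator PA200, was at 14.3 and 15.7 FPKM in Dusp2KO CD44hi cells, against 14.004 and 13.9 FPKM in WT ones (difference 0.10, adjusted p = 0.35). Psmf1, the inhibitor PI31, was at 8.05 and 8.41 FPKM in Dusp2KO CD44hi cells, against 9.52 and 10.3 FPKM in WT ones, without overlap (difference -0.24, adjusted p = 0.055).

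Psmb9 and Tap1, a chain of the peptide transporter of MHC class I loading, are neighbours on opposite strands that share 212 exon bases, or 5.79% of the exon bases of Psmb9. Tap1 was at 89.9 and 84.2 FPKM in CD44hi cells of Dusp2KO and at 103 and 84.3 FPKM in those of WT mice, against 90.6 FPKM in the CD44lo library of Dusp2KO and 118 FPKM in that of WT mice. Its fractions overlapped and it was not called (difference -0.20, adjusted p = 0.22), where Psmb9 differed by -0.62. The inequality of the 2 differences was not tested.

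Whether the genotype difference itself depended on the fraction was tested as an interaction, the genotype difference in CD44hi minus that of the single CD44lo pair. Of the members 1 was called (2.04%), against a background of 4.22% of all genes tested (2.73% positive and 1.49% negative). An unadjusted p under 0.05 was reached by 14 of the 49 members and by 2799 of all 9691 genes tested, a similar share. The call was Psme2b, an almost identical copy of Psme2. It was at 4.01 and 5.26 FPKM in Dusp2KO CD44hi cells, against 3.38 and 4.34 FPKM in WT ones, and at 3.80 FPKM in Dusp2KO CD44lo, against 19.03 FPKM in the WT CD44lo library. The WT CD44lo library thus stood alone, with 811 reads, while the other 5 libraries held 76 to 233 reads, and the interaction was 2.27 (SE 0.24, adjusted p = 0.025). It rests on that 1 library, without which it could not be fitted. With no filter on low values it missed the threshold (adjusted p = 0.13). The SE and p of the interaction come from the spread of the CD44hi pairs, and the spread among CD44lo libraries of a genotype was not measured.

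Psme2b reads are uncertain. Its transcript was 99.4% identical to that of Psme2 over 794 aligned bases, and 384 of its 738 windows of 100 bases (52.0%) occur unchanged in Psme2. Psme2 itself, with 317 FPKM in Dusp2KO CD44lo cells and 272 FPKM in WT CD44lo cells, lay above the 202 to 236 FPKM of the CD44hi libraries, and its part in the Psme2b reads was not tested. The predicted gene 9930111J21Rik1, which shares 41 exon bases with Psme2b on the same strand, was at 0.351 FPKM in Dusp2KO CD44lo, against 3.29 FPKM in the WT CD44lo library, and at 0.296 to 0.923 FPKM in CD44hi cells. 9930111J21Rik2 was likewise highest in WT CD44lo cells, at 5.96 FPKM, against 1.23 FPKM in the Dusp2KO CD44lo and 1.18 to 1.99 FPKM in CD44hi cells. The part of these 2 genes was not tested either.

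The interaction of Psmb5 was -0.49 (adjusted p = 0.068) and missed the threshold. The interaction was negative for 44 of the 49 members, with a median of -0.19 against -0.01 over all genes tested. That skew was smaller with a length trend removed from each library, when 33 were negative and the median was -0.10. When each library was rescaled to a total of 1000000, 30 were negative and the median was -0.04, against 0.13 over all genes. Without WT CD44hi replicate 1 the interaction was called for 19 members (38.8%, against 31.4% of all genes), and without WT CD44hi replicate 2 for 8 (16.3%, against 17.9%).

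Other genes of the ubiquitin-proteasome pathway and of peptide supply to MHC class I were taken as a list of 41, of which 37 were in the table and all were tested. In CD44hi cells 12 of the 37 (32.4%) were called between the genotypes, 4 higher and 8 lower in Dusp2KO, against the 26.7% of all genes. Between the fractions 12 were called as well, 2 higher and 10 lower in CD44hi, against 27.4%. The interaction had 0 calls by limma among the 37, against 4.22% of all genes tested. An unadjusted p under 0.05 was reached by 13 of the 37 and by 2799 of all 9691 genes tested.

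Irf1, a transcription factor that drives immune subunits under interferon, fell in both comparisons. It was at 40.1 and 38.9 FPKM in CD44hi cells of Dusp2KO and at 73.7 and 68.9 FPKM in those of WT mice, against 93.9 FPKM in the CD44lo library of Dusp2KO and 129 FPKM in that of WT mice. It fell by 0.84 (SE 0.066, adjusted p = 0.0011) in Dusp2KO relative to WT CD44hi cells and by 1.04 (SE 0.101, adjusted p = 0.0004) in CD44hi relative to CD44lo cells. The Dusp2KO CD44hi pair was the lowest. The immune subunits, by the values above, were called between the fractions and not between the genotypes.

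Among the genes that act before the proteasome, Vcp, the segregase that extracts ubiquitinated proteins, was at 101 and 99.0 FPKM in Dusp2KO CD44hi cells, against 150 and 156 FPKM in WT ones, and fell by 0.61 (SE 0.065, adjusted p = 0.0027). Uba6, a ubiquitin-activating enzyme, was at 6.93 and 7.17 FPKM in Dusp2KO CD44hi cells, against 4.20 and 3.87 FPKM in WT ones, and rose by 0.68 (SE 0.080, adjusted p = 0.0036). The calls of Irf1, Vcp and Uba6 ended with no filter on low values (adjusted p = 0.062, 0.062 and 0.065). The peptide-trimming enzyme Erap1 was at 49.6 and 51.3 FPKM in Dusp2KO CD44hi cells, against 42.1 and 30.9 FPKM in WT ones, and rose by 0.47 (adjusted p = 0.043). That value was 0.69 without WT CD44hi replicate 1 and 0.25 without replicate 2, and the call ended with no variance trend (adjusted p = 0.060) and with no filter (adjusted p = 0.25). Ecpas, an adaptor of the proteasome, rose by 0.32 (adjusted p = 0.027). The Ecpas call ended without Dusp2KO CD44hi replicate 1 or 2 (adjusted p = 0.079 and 0.16). Nfe2l1, the factor that raises subunit genes when the proteasome is inhibited, was at 33.3 and 31.4 FPKM in Dusp2KO CD44hi cells, against 29.0 and 23.7 FPKM in WT ones, and was not called (difference 0.29, adjusted p = 0.074). Between the fractions B2m, the light chain of MHC class I, fell by 0.55 (adjusted p = 0.031), while Ecpas and the deubiquitinase Uchl5 rose by 0.50 and 0.30 (adjusted p = 0.037 and 0.023). The Ecpas difference was 0.18 without the Dusp2KO CD44lo and 0.81 without the WT CD44lo library. Without the Dusp2KO CD44lo library these calls ended, with adjusted p of 0.18 for B2m, 0.19 for Ecpas and 0.057 for Uchl5, and they ended without either Dusp2KO CD44hi library as well (adjusted p between 0.084 and 0.14).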

How the data were processed

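RNA-seq of 6 libraries was deposited by the authors as 1 table of FPKM per gene (18122 rows), with 0 columns of samples left unused. HISAT2 2.0.5 is the tool and mm39 and hg38 are the builds, with no role stated, per the submitters' processing notes, and the labels' description also names 10X Genomics. Counter, annotation and strand setting were not given in the sources used here. Groups come from the sample titles.

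FPKM were taken as log2(FPKM + 1) for 9691 genes, those averaging at least 1 FPKM. limma 3.58.1 (R 4.3.3, variance trend, Benjamini-Hochberg at 0.05, two-sided) was fitted with 1 mean per group (2 residual degrees of freedom) for the genotype difference in CD44hi and the interaction, and with genotype and fraction as additive terms (3 residual degrees of freedom) for the fractions. CD44lo pairs have no replicate and no test. Ratios were compared by exact permutation. The fits were run on simulated data with independent noise, of 1 spread per gene in all libraries. Such data hold no library effects or length trends, so they give no check on these.

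Whole reads came out of all 16220 rows (100%) with a value above 0 in at least 2 libraries, within 1e-06 reads. They also came out of 98 of 2000 perturbed control rows. They are the smallest whole numbers that fit, so a factor common to a row is lost. The 1902 rows above 0 in 1 library were set to 1 read. Recovered reads and depths can thus be too low. An alternative, voom on the recovered reads, called 2951 genes between the genotypes in CD44hi, against 2586 in the reported fit. Chromosomes come from RefSeq (GRCm38.p6), exon overlaps from GENCODE vM21. Members and lists were chosen with earlier results of these data known. Values per library are given for the catalytic subunits, activators and inhibitor and, per comparison, for up to 5 rises and 5 falls among called members and up to 3 and 3 from the pathway list, of which 1 gene is not reported here; Psmd8, Psmd10, Psme3ip1, Tap1 and Nfe2l1 were named after their values were seen.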

Additional observations from a re-analysis of the deposited data

Results flagged for a closer look

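Psme2b, the near-identical copy of the PA28 gene Psme2, had a genotype difference that depended on the sorted fraction. The interaction test of limma, the Dusp2KO minus WT difference in CD44hi less that in CD44lo, gave 2.27 on the log2(FPKM + 1) scale (SE 0.24, adjusted p = 0.025). The value comes from a single WT CD44lo library at 19.03 FPKM, against 3.80 FPKM in the Dusp2KO CD44lo library. The spread among CD44lo libraries of a genotype was not measured.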

How the results depend on the processing

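The number of members called between the genotypes in CD44hi, 8 in the reported fit, was 0 without a filter on low values, 4 with quantile normalization, 5 with rescaling to a total of 1000000, 3 with median-ratio scaling, 5 with a length trend removed, 4 without a variance trend, and 1 to 22 with a library left out. Over all genes the same settings called 2 of 18122 genes, then 2735, 2206, 2646, 2741 and 2372 of 9691, against 2586 in the reported fit. Between the fractions, 8 became 6 to 18 with a library left out. For the interaction, 1 became 0 without the filter, 3 at a minimum of 5 FPKM, 2 with rescaling, 2 with voom and 1 to 19 with a library left out; fits without a CD44lo library were not possible. Rescaling to 1000000 split all genotype calls in CD44hi into 1292 higher and 914 lower, against 1248 and 1338. The Psmb5 genotype difference was called in 15 of 16 alternatives (-1.49 to -1.29; adjusted p = 0.062 without the filter), and Psmb8, Psmb9, Psmb10 and Psme1 were called between the fractions in 16 of 16. No called difference named in the text changed sign in an alternative.

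With the replicate number as a block, 10 members (20.4%) were called between the genotypes, against 34.3% of all genes. Between the fractions 6 members (12.2%) were called, against 16.5% of all genes, and in the interaction 7 (14.3%), against 16.1%. Libraries with the same number share only that number, and their deviations correlated with r = 0.022 over 9691 genes.

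Sign changes were confined, among the named results, to differences not called in the reported fit, that of Psme2b between the fractions among them. With a library left out, the genotype difference ran from -0.037 to 0.10 for Psmb7, -0.13 to 0.032 for Psmb9 and -0.014 to 0.048 for Psme3. Under the same step the fraction difference ran from -0.29 to 0.21 for Psmb5, -0.29 to 0.25 for Psmb6, -2.05 to 0.22 for Psme2b (the positive value without the WT CD44lo library) and -0.077 to 0.25 for Psme4. The fraction difference of Psmb5 was also 0.021 with rescaling, 0.025 with the length trend removed and 0.0011 with voom, that of Psmb6 0.042 with rescaling, and that of Psme4 -0.034 with the length trend removed. The causes were not tested. A single CD44lo library per genotype limits every fraction and interaction result.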
